A study of Mus musculus with 6 samples.

Results

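The Krüppel-like factors of the gut epithelium are described here as 10 genes, Klf2, Klf3, Klf4, Klf5, Klf6, Klf7, Klf9, Klf10, Klf13 and Klf15, taken by symbol from the 28752 genes of the deposited expression table. RNA sequencing was performed on 6 mouse samples, 3 carrying the vector and 3 overexpressing circEZH2_005 from an adenovirus. The samples were Lgr5+ intestinal stem cells (ISCs), the dividing cells of the crypt base, from Lgr5-GFP mice, which carry a fluorescent reporter in Lgr5-expressing cells. They were cultured into crypt-villus organoids, and every sample of both groups was then exposed to hypoxia/reoxygenation (H/R), with 4 h at 2% O2. Infection lasted 72 h according to the labels. The study's methods give a shorter time. The vector samples are labelled WT, and the labels neither give the age of these Lgr5-GFP mice nor say which samples came from separate mice or cultures. The p-values therefore measure the spread between these samples, which may be technical. The vector group differs from the other in the circEZH2_005 construct alone as far as the labels say, and samples without H/R were not analysed here.

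Krüppel-like factors are transcription factors that bind GC-rich and CACCC-containing DNA through zinc fingers at their carboxyl end. In the intestine, Klf5 is known as a factor of the proliferating crypt, and Klf4 as a factor of differentiated cells and goblet cells that restrains division. Several others act mainly as repressors. Klf3, Klf8 and Klf12 recruit the corepressor CtBP, whereas Klf9, Klf10, Klf11, Klf13 and Klf16 recruit Sin3a.

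The 3 genes of the family that passed the test between the groups were Klf4, Klf6 and Klf13, and the DNA before their start sites is given for that reason. The sequences are from RefSeq (GRCm38.p6), of which the promoter table matched 8 of the 10 genes, all but Klf5 and Klf10. Each is written 5′ to 3′ on the strand of the gene and ends before the first base of the gene. The capitals mark matches on either strand to GGGCGG (the GC box), CACCC (the CACCC box) and CCAAT (the CCAAT box), which overlap in places. Klf4 is shown over chr4:55532476-55532725 (minus strand), Klf6 over chr13:5861239-5861481 (plus strand) and Klf13 over chr7:63938916-63939165 (minus strand).
Klf4: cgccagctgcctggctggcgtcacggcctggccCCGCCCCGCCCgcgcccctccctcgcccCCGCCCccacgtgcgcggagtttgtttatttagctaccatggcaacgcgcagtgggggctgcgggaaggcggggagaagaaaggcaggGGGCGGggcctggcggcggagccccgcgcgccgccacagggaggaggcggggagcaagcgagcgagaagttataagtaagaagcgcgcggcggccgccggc
Klf6: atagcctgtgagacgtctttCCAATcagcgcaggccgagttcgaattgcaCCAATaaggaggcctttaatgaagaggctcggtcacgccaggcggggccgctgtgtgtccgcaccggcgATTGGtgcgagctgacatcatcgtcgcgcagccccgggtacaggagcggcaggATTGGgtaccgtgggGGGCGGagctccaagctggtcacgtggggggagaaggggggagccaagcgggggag
Klf13: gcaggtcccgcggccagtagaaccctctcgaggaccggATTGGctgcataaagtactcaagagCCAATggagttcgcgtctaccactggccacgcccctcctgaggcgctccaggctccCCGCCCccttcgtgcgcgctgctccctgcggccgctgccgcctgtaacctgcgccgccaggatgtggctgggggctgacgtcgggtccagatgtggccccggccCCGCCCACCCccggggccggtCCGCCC

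The 3 stretches were GC-rich, with 74.0% G or C for Klf4, 64.8% for Klf6 and 71.6% for Klf13 in the 250 bases before the start, against a median of 52.4% over 32851 mouse promoters. They differed in the boxes they held. The Klf4 stretch had 4 GC boxes, 3 of them close together at its upstream end, with no CACCC or CCAAT box. The Klf6 stretch had 4 CCAAT boxes and 1 GC box, and the Klf13 stretch had 3 GC boxes, 2 CCAAT boxes and 1 CACCC box. Over the 8 matched genes, 7 had a GC box in this window, compared with 32.7% of all promoters, and 6 had a CACCC box, compared with 52%. A CCAAT box was present in 4 of the 8, compared with 33.8% of all promoters. The letters TGANTCA (a loose form of the AP-1 site, with N any base) were found before Klf9 alone, as TGAATCA. They are in 6.75% of all promoters. The letters TGACGTCA (the cAMP response element), TATAAA and the CArG box were found before none of the 8, and are in 1.55%, 12.4% and 1.47% of all promoters. A match of letters describes the sequence and is not evidence that a factor bound there.

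**Figure D1:**
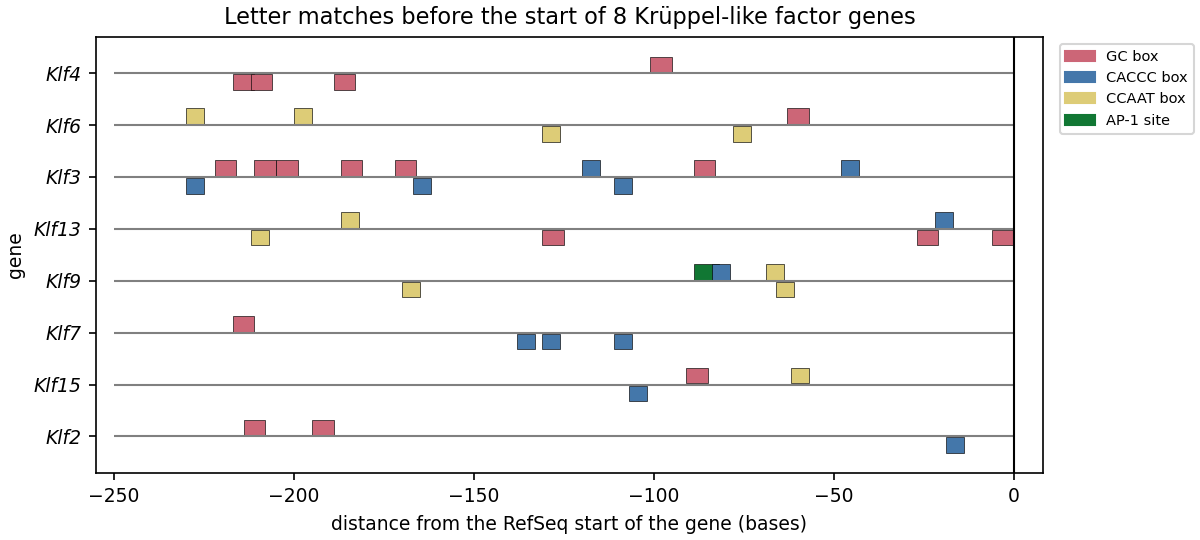
Matches to the GC, CACCC and other named boxes and to TGANTCA in the 250 bases before the RefSeq start of 8 genes. TGANTCA is keyed as AP-1 site, and the x axis gives the distance from the start in bases. Boxes above a line are on the strand of the gene and boxes below it on the other strand; Klf4 has 4 GC boxes and Klf6 has 4 CCAAT boxes.

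The libraries held between 71506487 and 79919893 counts, and the labelled cell type was checked with its markers. All 6 stem cell markers were detected, and Olfm4 stood at 1003 to 2314 CPM (counts scaled to library size) in the 6 samples. Markers of enterocytes, goblet, Paneth and enteroendocrine cells were detected as well, with enterocyte markers summing to between 11118 and 21455 CPM, so the samples held RNA of differentiated epithelium besides that of stem cells. Vector sample 2 was nearer to the circEZH2_005 samples (Pearson r of log2 CPM 0.965 to 0.971) than vector samples 1 and 3 were (0.951 to 0.964). In bulk samples, fewer cells of a type and less RNA per cell cannot be told apart.

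All 10 genes were listed and tested, and they covered a wide range of levels. In the vector samples the order per length, in FPKM (fragments per kilobase of transcript, scaled to library size), was led by Klf5 at 41 ± 2.76 (SD, n = 3). Klf4 at 17.5 ± 2.1 and Klf6 at 16.3 ± 1.33 FPKM followed, and these neighbours overlapped in range. Klf3 at 12.7 ± 1.03 and Klf10 at 9.06 ± 1.16 FPKM came next, each apart from its neighbours. Klf13 at 5.18 ± 0.118 and Klf9 at 4.45 ± 0.572 FPKM overlapped each other. Klf7 stood at 1.35 ± 0.287 FPKM, and Klf15 and Klf2 were near the lower end of detection, at 0.259 ± 0.148 and 0.145 ± 0.0019 FPKM. The abundant members of the family in these cells were thus the crypt factor Klf5 and the factors Klf4, Klf6 and Klf3, which together made up 79.3% to 82.2% of the summed FPKM of the 10 genes in the vector samples.

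With circEZH2_005 the order differed at its head. Klf4 came first at 47.7 ± 10.2 FPKM, in a range that overlapped that of Klf5 at 42.6 ± 4.21 FPKM. Klf6 followed at 29.8 ± 4.05 FPKM and no longer overlapped Klf4. The order from Klf3 (15 ± 0.81 FPKM) through Klf10 (9.51 ± 1.13), Klf13 (6.21 ± 0.418), Klf9 (5.24 ± 1.04) and Klf7 (1.6 ± 0.296) stayed the same, and Klf2 (0.186 ± 0.0632) and Klf15 (0.106 ± 0.105) changed places with overlapping ranges. The place of Klf4 at the head rested on circEZH2_005 sample 2, without which it was in place 2. Summed over the 10 genes, the level was 108 ± 1.67 FPKM with the vector and 158 ± 11.2 FPKM with circEZH2_005, a ratio of 1.46.

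**Figure D2:**
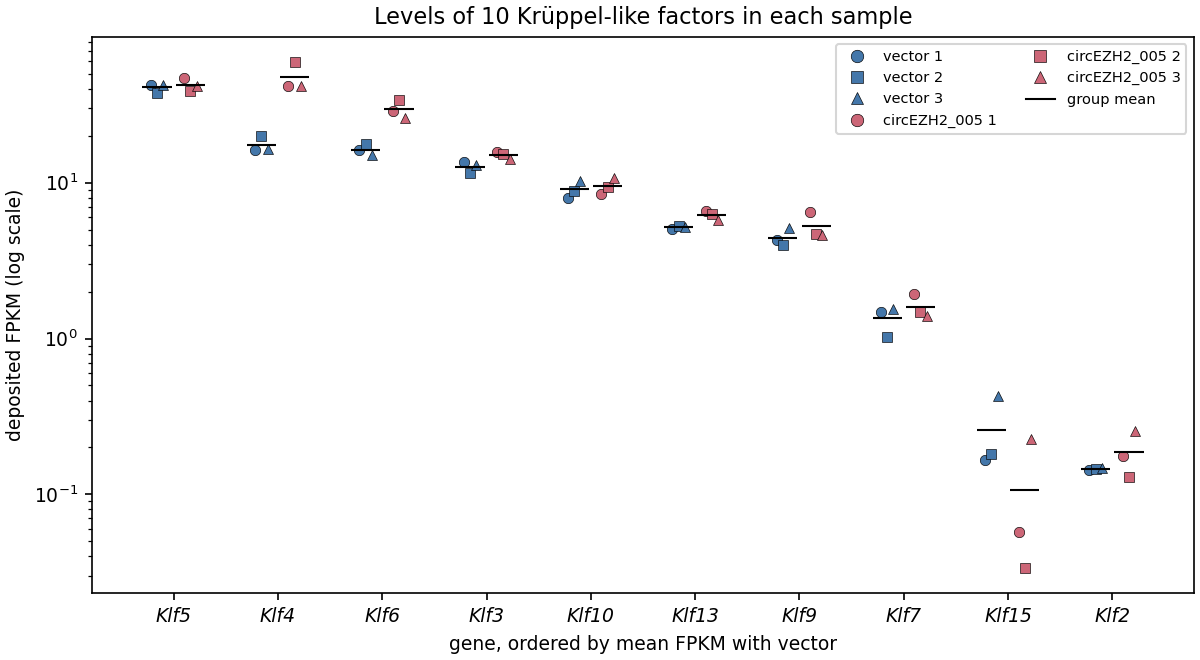
Deposited FPKM (log scale) of the 10 Krüppel-like factors in each of 6 samples, with genes ordered by their mean in the vector samples; blue symbols are vector, red symbols circEZH2_005, and the short lines are group means. Klf4 and Klf6 are higher in all 3 circEZH2_005 samples, whereas the 2 groups of Klf5 overlap.

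Of the 10 genes, 3 were higher with circEZH2_005 at an adjusted p-value under 0.05 and 0 were lower, in edgeR's quasi-likelihood test, adjusted by Benjamini-Hochberg over all 18348 genes tested. Over all genes tested, 2.69% were called higher (493 genes) and 0.986% lower (181 genes). On FPKM values with limma, the all-gene calls split evenly, into 371 higher and 364 lower with a pseudocount of 1, and into 323 and 319 with 0.1. At an unadjusted p under 0.05, 4 of the 10 genes (Klf3, Klf4, Klf6 and Klf13) were higher and 0 lower, compared with 14% higher and 9.72% lower of all genes tested. DESeq2 called the same 4 higher and 0 lower, compared with 8.77% and 4.28% of all genes tested. The same 4 had every circEZH2_005 sample above every vector sample in CPM, a pattern found upward in 16.4% and downward in 14.2% of all genes tested. By the study's criterion of a fold change over 2 with p under 0.05, Klf4 alone was higher, compared with 6.22% of all genes tested. The log2 fold change was above 0 for 9 of the 10, with a median of 0.33, against a median of 0.00 over all genes tested.

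**Figure D3:**
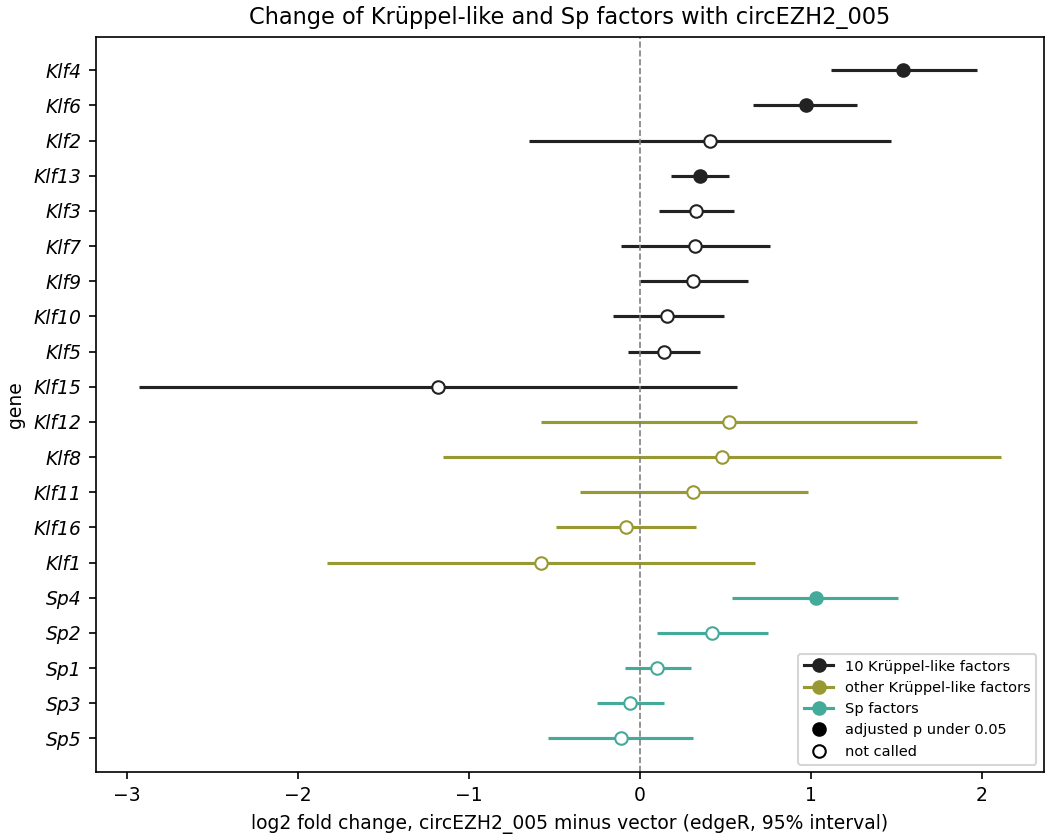
log2 fold change of each gene (circEZH2_005 minus vector) from edgeR, with its 95% interval, for the 10 Krüppel-like factors, the 5 other tested members of the family and 5 Sp factors; filled points have an adjusted p under 0.05. Klf4 at 1.54 and Klf6 at 0.97 lie furthest from 0 among the filled family members, and the interval of Klf15 is the widest of the 10.

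Klf4 (ENSMUSG00000003032, chromosome 4, 55527143 to 55532466, minus strand, mm10) changed most among the called members. The vector samples 1 to 3 held 3913, 4846 and 4233 counts of it, and the circEZH2_005 samples 10810, 16192 and 10829. In CPM, scaled with TMM for library size, these were 54, 64.9 and 54.1 against 136, 218 and 151. The lowest circEZH2_005 sample was above the highest vector sample, and circEZH2_005 sample 2 was the highest of all. The log2 fold change was 1.54 (SE 0.18, 95% interval 1.12 to 1.97), or 2.92-fold (2.18 to 3.91), with an adjusted p of 0.0138 in edgeR's quasi-likelihood test (Benjamini-Hochberg). By p-value the gene ranked 49 of the 18348 tested. The adjusted p was 0.0773 without vector sample 1 and 0.088 without vector sample 3, and between 0.00616 and 0.035 without any one of the other samples, while the log2 fold change stayed between 1.32 and 1.68 over the 6 refits.

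Klf6 (ENSMUSG00000000078, chromosome 13, 5861482 to 5870394, plus strand, mm10), known as a rapidly induced factor of injury and growth signals, was higher as well. Its CPM was 77.9, 82.9 and 71.2 in the vector samples and 137, 180 and 136 in the circEZH2_005 samples, from counts of 5575 to 6193 and 9740 to 13412. The groups did not overlap, and sample 2 was again the highest within each group. In log2 terms the change was 0.97 (SE 0.13, 95% interval 0.66 to 1.27), or 1.95-fold, with an adjusted p of 0.0185 in edgeR's quasi-likelihood test (Benjamini-Hochberg). Without vector sample 1 the adjusted p was 0.0975 and without vector sample 3 it was 0.105, and it was between 0.00946 and 0.0411 without any one of the others. On log2 CPM over the 6 samples, Klf6 followed Klf4 with a Pearson r of 1.00, a description over samples that share the 2 groups.

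Klf13 (ENSMUSG00000052040, chromosome 7, 63886351 to 63938915, minus strand, mm10), a Sin3a-recruiting factor also known as an activator of chemokine expression in T lymphocytes, changed by less. Its CPM was 41.9, 42.7 and 42 with the vector and 53.4, 56.5 and 51.3 with circEZH2_005. The vector samples lay within a coefficient of variation of 0.951%, and all circEZH2_005 samples were above them. This was a log2 fold change of 0.35 (SE 0.07, 95% interval 0.18 to 0.52), or 1.27-fold, with an adjusted p of 0.0473 in edgeR's quasi-likelihood test (Benjamini-Hochberg). This call did not hold with any 1 of the 6 samples left out (adjusted p 0.0551 to 0.181), nor without a filter on low counts (0.088), nor on FPKM with limma (0.116 and 0.115). Median-of-ratios scaling (adjusted p 0.0492) and DESeq2 (0.00451) retained it.

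Klf5 (ENSMUSG00000005148, chromosome 14, 99298691 to 99315036, plus strand, mm10) was the most abundant of the 10 with the vector and did not pass the test. It had 243, 210 and 239 CPM in the vector samples and 263, 242 and 257 CPM in the circEZH2_005 samples. The groups overlapped, since vector sample 1 lay above circEZH2_005 sample 2. Its log2 fold change was 0.14 (95% interval -0.07 to 0.35), with an adjusted p of 0.403 in edgeR's quasi-likelihood test (Benjamini-Hochberg). The interval in linear terms was from 0.952-fold to 1.27-fold.

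Because Klf4 and Klf5 are known for opposed roles in the gut epithelium, their levels were set against each other within each sample, which removes the scaling for library size. The log2 ratio of Klf4 FPKM to Klf5 FPKM came to -1.40, -0.92 and -1.37 for the vector and to -0.18, 0.62 and 0.01 for circEZH2_005, in sample order. Every circEZH2_005 sample was above every vector sample, and vector sample 2 was the highest of its group. The group means were -1.23 ± 0.27 and 0.15 ± 0.42 (SD, n = 3), a difference of 1.38, or 2.6-fold. The two-sided exact permutation test gave p = 0.1, the smallest value that 3 against 3 samples allow. As a share of the summed FPKM of the 10 genes, Klf4 went from between 15% and 18.7% with the vector to between 26.4% and 35.1% with circEZH2_005. Klf5 went from between 35.5% and 39.6% to between 22.9% and 30%, although its own level did not pass the test.

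**Figure D4:**
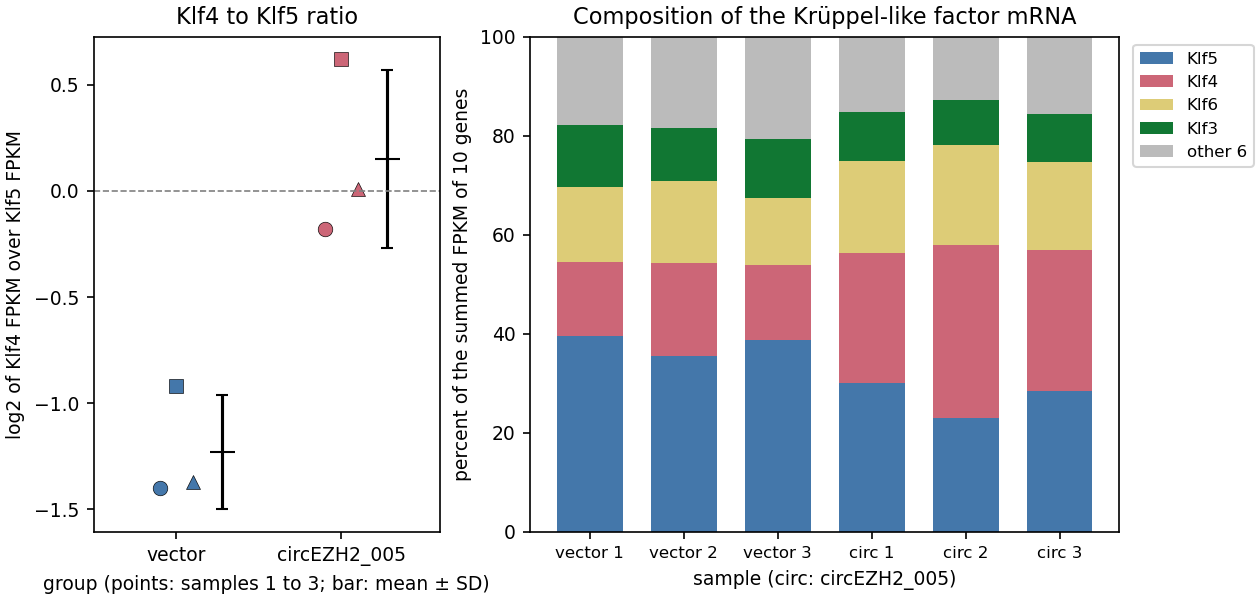
Left, log2 of the ratio of Klf4 FPKM to Klf5 FPKM in each sample (circle, square and triangle for samples 1, 2 and 3), with the mean and SD beside them. Right, the percentage of the summed FPKM of the 10 genes taken by Klf5, Klf4, Klf6, Klf3 and the other 6; Klf4 takes 35.1% in circEZH2_005 sample 2 and no more than 18.7% in any vector sample.

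Klf3 (ENSMUSG00000029178, chromosome 5, 64803388 to 64832901, plus strand, mm10), the CtBP-recruiting repressor, had CPM of 166, 138 and 158 with the vector and 190, 205 and 188 with circEZH2_005. The groups did not overlap. The log2 fold change of 0.33 (SE 0.09, 95% interval 0.11 to 0.55) gave an adjusted p of 0.0871 in edgeR's quasi-likelihood test (Benjamini-Hochberg), above the threshold, whereas DESeq2 gave 0.0242. Exons of Gm20033 on the opposite strand overlap those of Klf3, but held only 4 to 25 counts per sample.

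The hormone- and cytokine-responsive members did not pass the test. Klf9 (ENSMUSG00000033863, chromosome 19, 23141226 to 23168134, plus strand, mm10), induced in many tissues by glucocorticoid and thyroid hormone, had 22.6, 20.5 and 26.4 CPM with the vector and 33.3, 27.1 and 26.1 with circEZH2_005. Only circEZH2_005 sample 3 lay below a vector sample. Its log2 fold change was 0.31 (95% interval -0.00 to 0.63), with an adjusted p of 0.213 in edgeR's quasi-likelihood test (Benjamini-Hochberg). Klf10 (ENSMUSG00000037465, chromosome 15, 38291463 to 38300706, minus strand, mm10), an early response gene of TGF-beta, had 36.8, 39.5 and 46.5 CPM with the vector and 38.1, 46.7 and 52.9 CPM with circEZH2_005. The groups overlapped, with a log2 fold change of 0.16 (95% interval -0.16 to 0.49) and an adjusted p of 0.536 in the same edgeR test.

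Klf7 (ENSMUSG00000025959, chromosome 1, 64029447 to 64121491, minus strand, mm10), best known from neurons, had 13.2, 8.89 and 13.6 CPM with the vector and 16.9, 14.5 and 13.3 CPM with circEZH2_005. The groups overlapped, and vector sample 2 was low. A log2 fold change of 0.32 (95% interval -0.11 to 0.76) came with an adjusted p of 0.349 in edgeR's quasi-likelihood test (Benjamini-Hochberg). The strand setting of the counting is not stated, and exons of Gm26649 and Gm13748 lie opposite those of Klf7.

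The remaining members were scarce. Klf2 (ENSMUSG00000055148, chromosome 8, 72319033 to 72321656, plus strand, mm10), a factor of endothelium and resting T lymphocytes, had 22, 22 and 24 counts with the vector and 28, 22 and 40 with circEZH2_005. The groups overlapped, and the log2 fold change was 0.41 (95% interval -0.65 to 1.47) with an adjusted p of 0.641 in edgeR's quasi-likelihood test (Benjamini-Hochberg). Klf15 (ENSMUSG00000030087, chromosome 6, 90462576 to 90475238, plus strand, mm10), a glucocorticoid-induced factor of amino acid and lipid metabolism, was the only 1 of the 10 with a negative log2 fold change. It had 37, 41 and 103 counts with the vector and 14, 9 and 54 with circEZH2_005. Sample 3 was the highest in each group, and the groups overlapped. The log2 fold change was -1.18 (SE 0.75, 95% interval -2.93 to 0.57), with an adjusted p of 0.394 in the same edgeR test. At these depths the 95% interval spans both directions, and a change of either sign was not detectable.

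The variation within a group also differed between members. With the vector, the coefficient of variation of CPM was lowest for Klf13 (0.951%) and Klf2 (2.11%) and highest for Klf15 (57.4%). Each value comes from 3 samples and is a rough estimate. That of Klf2 rested on 22 to 24 counts per sample, and was 34.4% with circEZH2_005. With circEZH2_005, Klf5 (4.26%), Klf3 (4.82%) and Klf13 (4.88%) varied least, and Klf4 at 25.8% varied most among the members above 1 FPKM. Genes with a pattern like that of Klf4 were sought among 9263 tested genes with a mean of at least 10 CPM, by Pearson r of log2 CPM over the 6 samples. The nearest were Nuak2 (r = 1.000), the kinase gene Ulk3 (0.999) and the mitochondrial glutamate carrier gene Slc25a22 (0.998). Nuak2, a kinase of the AMPK family, had 27.9, 34.1 and 28.3 CPM with the vector and 62.6, 94.1 and 68.5 CPM with circEZH2_005. As for Klf4, sample 2 was the highest in each group.

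Of the other 5 tested Krüppel-like factors, 0 were called in edgeR's quasi-likelihood test (Benjamini-Hochberg), 0 by DESeq2 and 0 reached an unadjusted p under 0.05, and their median log2 fold change was 0.31. They ran from Klf1 at -0.58 to Klf12 at 0.52, and 4 of them (Klf1, Klf8, Klf11 and Klf12) did not exceed 6.06 CPM in any sample. Of the related Sp factors, which bind the same GC boxes, 5 were tested. By edgeR 1 was called higher and 0 lower, compared with 2.69% and 0.986% of all genes tested. DESeq2 also called 1 higher and 0 lower, compared with 8.77% and 4.28%. At an unadjusted p under 0.05, 2 were higher and 0 lower, compared with 14% and 9.72%. Sp4 had 6.82, 9.73 and 6.03 CPM with the vector and 17, 16 and 13 CPM with circEZH2_005, a log2 fold change of 1.03 (SE 0.21) with an adjusted p of 0.0442 in edgeR's quasi-likelihood test (Benjamini-Hochberg). The groups of Sp4 did not overlap, but with a sample left out its call held only without vector sample 2 (adjusted p 0.00758 to 0.165 over the 6 refits). The abundant Sp1 (128 to 155 CPM) had a log2 fold change of 0.10 and Sp5 the lowest of the Sp factors, at -0.11.

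Partners through which these factors act were tested as well, beside 2.69% of all genes called higher and 0.986% called lower. By DESeq2 these shares were 8.77% and 4.28%, and at an unadjusted p under 0.05 they were 14% and 9.72%. Of 12 cofactors tested, 1 was higher and 0 lower, with a median log2 fold change of -0.01. DESeq2 also called 1 higher and 0 lower, and at an unadjusted p under 0.05, 1 was higher and 2 were lower. Kat2b, an acetyltransferase, had a log2 fold change of 0.47 (adjusted p = 0.0402 in edgeR's quasi-likelihood test, adjusted over all genes). At the other end Hdac2 stood at -0.30 (adjusted p = 0.162 in the same edgeR test). The corepressors Ctbp1 and Sin3a, through which Klf3 and the Sin3a-recruiting members repress, had log2 fold changes of 0.04 and -0.11. For 9 upstream kinases, Mef2 factors and ubiquitin ligases, the median log2 fold change was 0.18. DESeq2 called 1 higher and 0 lower, and 2 were higher and 1 lower at an unadjusted p under 0.05. In the edgeR test, 1 was higher and 0 lower. This was Fbxo32, a ubiquitin ligase subunit known from muscle wasting and for targeting Klf4, with 1.64, 1.31 and 2.4 CPM against 7.13, 7.08 and 3.36 CPM, a log2 fold change of 1.71 (adjusted p = 0.0473 in the same edgeR test). Wwp1, a ligase that targets Klf2 and Klf5, had the lowest value, at -0.34 (adjusted p = 0.126, edgeR). With a sample left out, the call of Kat2b held only without vector sample 2 and that of Fbxo32 only without circEZH2_005 sample 3.

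Of 9 cell cycle genes linked to Klf4 and Klf5, 1 was higher and 0 lower, with a median log2 fold change of 0.16. DESeq2 called 2 higher and 0 lower, and the counts at an unadjusted p under 0.05 were the same. The shares of all genes tested that were higher were 2.69% by edgeR, 8.77% by DESeq2 and 14% at an unadjusted p under 0.05. Ccnd1, the cyclin of entry into the cycle, had 146, 189 and 160 CPM with the vector and 248, 231 and 250 CPM with circEZH2_005, a log2 fold change of 0.56 (adjusted p = 0.0412 in edgeR's quasi-likelihood test, adjusted over all genes). With a sample left out, this call held only without vector sample 2. Cdkn1a, a cell cycle inhibitor known as a target activated by Klf4, had 120, 98.8 and 109 against 134, 250 and 169 CPM, without overlap. Its log2 fold change of 0.76 was the largest of this list and its adjusted p of 0.0862 by the same edgeR test was above the threshold. Cdk1 had the lowest value, at -0.05.

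Of 10 genes of the TGF-beta pathway, which induces Klf10, 3 were higher and 0 lower, with a median log2 fold change of 0.42. DESeq2 called 5 higher and 0 lower, and the counts at an unadjusted p under 0.05 were the same. Over all genes tested, 2.69% were higher by edgeR, 8.77% by DESeq2 and 14% at an unadjusted p under 0.05. The ligand Tgfb1 had 1.6, 2.57 and 1.95 CPM with the vector and 6.87, 6.64 and 5.16 CPM with circEZH2_005, a log2 fold change of 1.61 (adjusted p = 0.0215 in edgeR's quasi-likelihood test, adjusted over all genes). Skil and Smad7, both inhibitors of the pathway that it induces itself, had log2 fold changes of 1.09 (adjusted p = 0.00658) and 1.02 (adjusted p = 0.0241) in the same edgeR test. Without vector sample 1 or 3, these 3 calls were lost (largest adjusted p 0.116 for Tgfb1, 0.0602 for Skil and 0.111 for Smad7). Tgfb1 and Smad7 were also lost without circEZH2_005 sample 2, and Smad7 without circEZH2_005 sample 3. The receptor Tgfbr1 had the lowest value, at -0.21, and Klf10 itself was not called.

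Glucocorticoid is known to induce Klf9 and Klf15. Of its receptor and 7 common targets, 1 was higher and 1 lower by edgeR, with a median of 0.03. Of all genes tested, 2.69% were higher and 0.986% lower. DESeq2 also called 1 higher and 1 lower, compared with 8.77% and 4.28% of all genes tested. At an unadjusted p under 0.05, 2 were higher and 1 lower, compared with 14% and 9.72%. Fkbp5 had 72, 102 and 80 CPM with the vector and 31.6, 27.4 and 32.3 CPM with circEZH2_005, a log2 fold change of -1.48 (SE 0.14, adjusted p = 0.00658 in edgeR's quasi-likelihood test, adjusted over all genes) that held in all 6 refits without a sample. Dusp1 stood at the other end with 1.32 (adjusted p = 0.0433 in the same edgeR test), a call that held in none of these 6 refits. The receptor gene Nr3c1 was at 162 to 192 CPM, with a log2 fold change of 0.13.

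**Figure D5:**
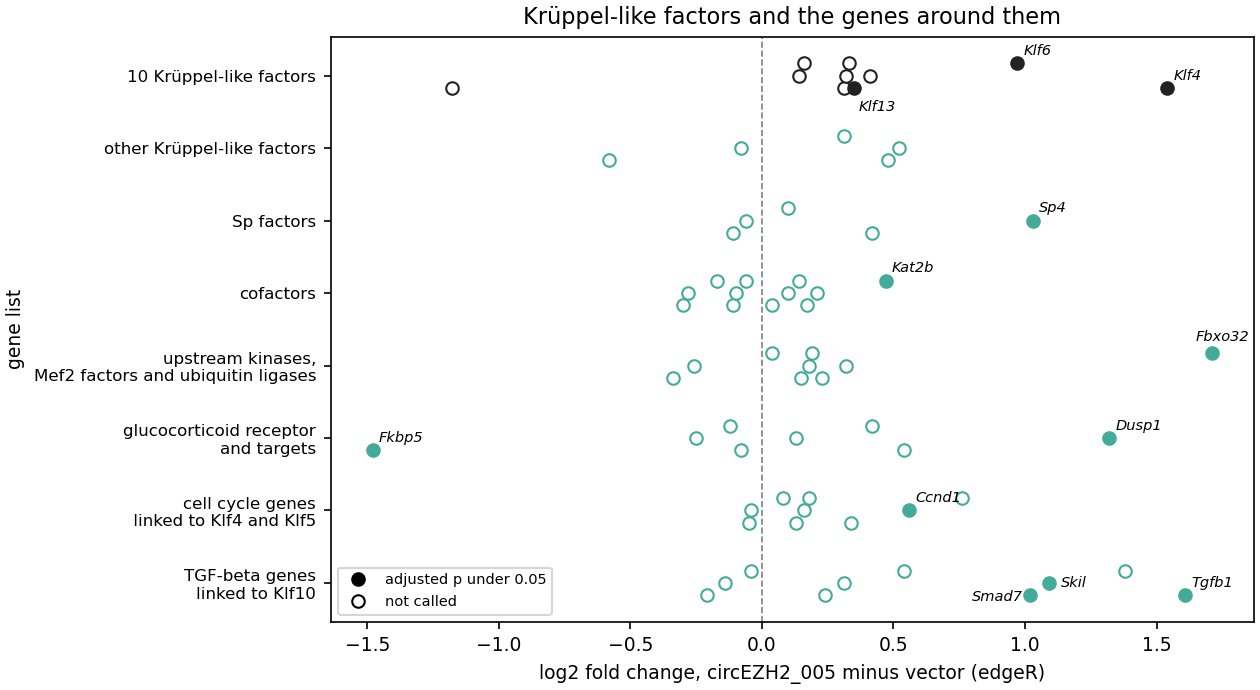
log2 fold change (circEZH2_005 minus vector, edgeR) of every tested gene of 8 gene lists, 1 row per list and 1 point per gene, with called genes filled and named. The 10 Krüppel-like factors in the top row lie to the right of 0 except Klf15, and Fkbp5 is the only filled point to the left of 0.

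Markers of several cell types differed between the groups alongside the Krüppel-like factors, and their part in the results was not tested. Of all genes tested, edgeR called 2.69% higher and 0.986% lower, and DESeq2 8.77% and 4.28%. At an unadjusted p under 0.05 the shares were 14% and 9.72%, and the marker counts stand beside these. The 6 stem cell markers had a median log2 fold change of -0.63 and 3 of them were called lower, namely Lgr5 (-0.88), Smoc2 (-0.81) and Rgmb (-0.58), with adjusted p of 0.0434, 0.0203 and 0.0284 in edgeR's quasi-likelihood test (Benjamini-Hochberg). Ascl2 (-0.68), Olfm4 (-0.42) and Axin2, which was above 0 at 0.31, were not called. DESeq2 called 4 lower and 0 higher, as many as at an unadjusted p under 0.05. The summed level of the 6 stem cell markers was between 1688 and 2543 CPM with the vector and between 1170 and 1744 CPM with circEZH2_005. Enterocyte markers had a median of 0.72, with 1 of 6 called, Apoa4 at 0.91 (adjusted p = 0.0279 in the same edgeR test), and summed to 11118 to 12877 against 11958 to 21455 CPM. DESeq2 called 4 of the 6 higher and 0 lower, and 5 were higher and 0 lower at an unadjusted p under 0.05. Sis alone was below 0, at -0.29, and was not called. The highest sum of the enterocyte markers was in circEZH2_005 sample 2, the sample in which Klf4 and Klf6 were highest. The lowest circEZH2_005 sum, 11958 CPM in sample 1, lay within the vector range. Klf4 in that sample, at 136 CPM, was above the vector samples (54 to 64.9 CPM). Vector sample 2, the highest of its group for Klf4, had a sum of 11722 CPM, inside the range of its group. A relation between these values was not tested. Goblet markers, for which Klf4 is a known factor, had 1 of 5 called, Clca1 at 0.76, and ranged over 4247 to 5549 against 5130 to 6544 CPM. DESeq2 called 2 of them higher and 0 lower. At an unadjusted p under 0.05, 2 were higher and 1, Spink4 at -0.28, was lower. Muc2 at 0.22 and Fcgbp at 0.06 were not called. Paneth markers had a median of -0.60 with 0 of 5 called by edgeR and 1, Mmp7, lower by DESeq2 and at an unadjusted p under 0.05. Enteroendocrine markers had a median of -0.01 with 0 of 5 called by edgeR, 1 higher by DESeq2 (Chga) and 1 in each direction at an unadjusted p under 0.05.

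Leukocyte markers had a median log2 fold change of 1.29, with all 9 above 0 and 1 called, Itgax at 1.86 (adjusted p = 0.0362 in edgeR's quasi-likelihood test, adjusted over all genes). DESeq2 called 3 of the 9 higher and 0 lower, and 4 were higher and 0 lower at an unadjusted p under 0.05. Over all genes tested, 2.69% were higher by edgeR, 8.77% by DESeq2 and 14% at an unadjusted p under 0.05. The leukocyte markers summed to 57.6 to 170 CPM with the vector and 228 to 384 CPM with circEZH2_005, and the highest vector value was that of sample 2. Klf2 and Klf13, which lymphocytes express, were measured in the same samples, and the part of these cells in their values was not tested. The T lymphocyte marker Cd3e was at 3.55, 16.5 and 4.41 CPM with the vector and at 37.6, 32 and 21.6 CPM with circEZH2_005. In vector samples 1 to 3, Klf13 was at 41.9, 42.7 and 42 CPM, and Klf2 at 0.304, 0.294 and 0.307 CPM from 22 to 24 counts. Within that group, Cd3e was highest in sample 2, in which Klf13 was highest and Klf2 lowest. The vector values of Klf13 had a coefficient of variation of only 0.951%. A relation of either gene to Cd3e was not tested. Of the 7 endothelial markers, 3 were tested and 1 called, Pecam1 at 1.93, and they summed to 2.22 to 4.11 against 4.95 to 6.94 CPM. The defining endothelial markers Cdh5, Kdr and Emcn did not exceed 0.243 CPM in any sample. The calls of the named markers (Lgr5, Smoc2, Rgmb, Apoa4, Clca1, Itgax and Pecam1) were lost without vector sample 1, vector sample 3 or circEZH2_005 sample 2, and held without vector sample 2. Without circEZH2_005 sample 1, those of Smoc2, Rgmb and Apoa4 held, and without circEZH2_005 sample 3 that of Itgax did. Fibroblast and smooth muscle markers summed to 2.81 to 10.7 CPM over both groups, with 0 of 7 called by edgeR or DESeq2, or at an unadjusted p under 0.05.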

How the data were processed

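Gene counts were compared between 3 vector and 3 circEZH2_005 samples under H/R, grouped by their labels. The authors deposited 1 table with a read count, without normalization, and an FPKM value for each gene and sample. Columns named for a negative control were taken as the vector samples, because no other samples here are labelled as controls. The submitters' processing notes name mm10, cutadapt 1.9, HISAT2 2.0.4, StringTie 1.3.4d and DESeq2 without their roles. The annotation, the counter and its strand setting are not given in the sources used here. The table held 0 further columns of sample values.

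Counts were filtered with filterByExpr, scaled with TMM and tested with edgeR 4.0.16 (R 4.3.3, quasi-likelihood, no covariate), with Benjamini-Hochberg adjustment over all genes tested. Standard errors (SE) were obtained as the log2 fold change over the root of the F statistic. Calls are at an adjusted p under 0.05. Levels of different genes were compared in FPKM. limma 3.58.1 was run on log2(FPKM + 1) and log2(FPKM + 0.1), keeping genes whose mean FPKM reached 0.5. Single values were compared by a two-sided exact permutation test over samples, which cannot go below 0.1. Depth was 71506487 to 79919893 counts per sample, with the fewest counts behind Klf2 and Klf15. No pair of samples had identical counts in more than 1.28% of 18258 genes.

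The 10 members and all gene lists were chosen with earlier results of these data known. Named were the 10 members, the extremes of log2 fold change and the called genes of each list, the 3 genes most like Klf4, and cell type markers by list with their defining genes. Ctbp1, Sin3a, Sp1, Nr3c1 and Cd3e were named for their role, after their values were seen. Alternatives were median-of-ratios scaling, no filter, DESeq2 1.42.0, limma, a replicate block, the study's fold criterion and each sample left out in turn. The fits across genes were tested on simulated data. Protein sequences were not used here, and a list of genes linked to Klf2 is not reported.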

Additional observations from a re-analysis of the deposited data

How the results depend on the processing

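The direction of all 10 Krüppel-like factors was the same under every alternative run; limma could not test Klf2 and Klf15, which were under its minimum level. The number of the 10 called higher was 3, between 0 and 2 with a sample left out (0 without vector sample 1 or 3), 2 without a filter on low counts, 2 with limma, 4 with DESeq2, and 1 by the fold criterion, for which only genes over 2-fold count. Klf4 and Klf6 were called under every alternative except without vector sample 1 or 3 and, for Klf6, the fold criterion. Over all genes, 493 were higher and 181 lower. Without a filter, where 28752 genes were tested, the calls were 132 and 37. DESeq2 gave 1610 and 786, limma 371 and 364 with a pseudocount of 1 and 323 and 319 with 0.1, and the fold criterion 1142 and 246. With a sample left out they were 26 to 1098 higher and 2 to 334 lower, lowest without vector sample 1 (26 and 2) or 3 (31 and 2) and highest without vector sample 2 (1098 and 334). Without circEZH2_005 sample 2 they were 62 and 6 and without sample 3 136 and 33. Of the 674 calls, 28 were kept without vector sample 1 and 606 without vector sample 2. The called genes of the other lists numbered 8 higher, 2 without a filter, 4 and 3 with limma, and 0 to 7 with a sample left out. The difference in Klf4 to Klf5 ratio stayed between 1.15 and 1.54. In TMM-scaled CPM, which is not per length, Klf4 was at rank 4 with the vector and 3 with circEZH2_005, in place of 2 and 1; without circEZH2_005 sample 2 it was at rank 2. The causes of these differences were not tested.

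With the replicate number as a block, 241 genes were higher and 36 lower, 2 of them higher in the other lists. Klf4 (adjusted p = 0.0112, edgeR) and Klf6 (0.0251) were called and Klf13 (0.130) was not. Deviations of same-numbered samples from their group means correlated at -0.14, -0.02 and 0.04 over 18348 genes. Those of different-numbered samples correlated at -0.13 to 0.15. Because deviations sum to 0 within each group of 3, these values cannot decide whether a number marks a shared mouse or culture.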
